A study of Mus musculus with 32 samples.

Results

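The comparison of C1T with C1 followed β-catenin knockout embryonic stem cells (ESCs) out of the ground state of pluripotency, and it rested on 8 libraries, 4 of each group, of the 32 in the series. The members were chosen by the labels of the libraries. C1 is a mouse ESC line from which the whole coding sequence of the endogenous β-catenin gene was removed and which carries, by lentiviral integration, a doxycycline (dox) inducible fusion of a destabilizing domain, mCherry and a constitutively active β-catenin that trimethoprim (TMP) stabilizes. Both groups carry the deletion and the fusion construct, and both received 10 μM TMP without dox. C1 cells grew in 2i/L (the leukemia inhibitory factor LIF, 3 μM of a GSK3 inhibitor and 1 μM of a MEK inhibitor) for 3 passages, were given TMP for 48 h and were collected at day 0 after sorting of living cells. C1T cells were seeded from this population on gelatin in NDiff227, a serum-free medium without LIF or inhibitors, with TMP, and were collected at day 4. The deposited labels name a serum medium with LIF for growth and a starvation treatment, while the culture given in the study's methods is used here. Day, medium, LIF, inhibitors and handling differed together between the groups and cannot be told apart. The fusion was brought in by lentiviral infection and antibiotic selection, so a low leak of it without dox is possible and was not tested. The labels call the 4 libraries of a group biological replicates without saying whether they came from separate cultures or which were processed together. The study's own batch correction treated replicates as batches. The p-values measure a spread between libraries of the same group, estimated from all 32 libraries in one fit. This spread may be technical.

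In the 2i/L ground state, blockade of the MEK-ERK pathway and of GSK3, together with LIF acting through STAT3, holds ESCs in a naive state that resembles the early epiblast. On withdrawal of these factors ESCs shut down naive transcription factors, pass through a formative state and later acquire lineage identities. In cells that have β-catenin, inhibition of GSK3 acts largely by stabilizing β-catenin, which relieves repression by TCF7L1 at naive genes. In the absence of β-catenin this branch is missing, and LIF and the MEK inhibitor remain.

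Gene counts summed to 1797132 to 2493356 in the C1 libraries and to 1570743 to 2464144 in the C1T libraries. Levels are given as CPM, the counts scaled to a common library size, and the floor of 3 counts stood for 1.20 to 1.91 CPM in the 8 libraries. CPM were scaled with edgeR's TMM factors. Pearson's r of log2 CPM across genes lay between 0.9708 and 0.9796 within a group and between 0.9023 and 0.9111 for a library of C1 against one of C1T. Genes are not independent replicates, so these values are a description. The share of uniquely aligned reads that fell on no annotated gene was 19.6 to 20.9% in C1 and 14.4 to 14.8% in C1T, and its part in the results was not tested.

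Ctnnb1, the gene removed from these cells, was counted at 8.81, 6.23, 5.19 and 11.0 CPM in the C1 libraries and at 8.16, 11.2, 12.4 and 7.18 CPM in C1T. The groups overlapped, and the log2 fold change of 0.32 (SE 0.27, FDR = 0.332) did not pass the threshold. Since a tag at the 3′ end can lie outside the deleted coding sequence, these counts do not check the knockout. Axin2, a feedback target of Wnt signalling, stood at 0, 0, 2.60 and 1.44 CPM in C1 and at 3.84, 2.91, 2.86 and 3.92 CPM in C1T. Its log2 fold change was 1.71 (SE 0.61, FDR = 0.0140), but the FDR rose to 0.0935 without C1 replicate 1 and to 0.0587 without C1 replicate 2.

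The transition at day 4 was broad. Of 15280 genes tested, 3722 (24.4%) were higher and 3806 (24.9%) lower in C1T than in C1, which together made 49.3% of the genes, and 723 rose and 854 fell by more than 2 on the log2 scale. The median log2 fold change over all genes was 0.01. FDR is the p-value of the quasi-likelihood test in edgeR after Benjamini-Hochberg adjustment over these 15280 genes, with a threshold of 0.05. Per chromosome the median log2 fold change ran from -0.12 on chromosome 9 to 0.15 on chromosome X among the nuclear chromosomes. With these backgrounds, 30 gene lists were described by the share of tested members past the threshold. Each list count below stands against the shares over all genes, 24.4% higher and 24.9% lower. Where a group had no more than 3 counts in any library a fold is given as a lower bound against 3 counts in the shallowest library of that group.

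**Figure D1:**
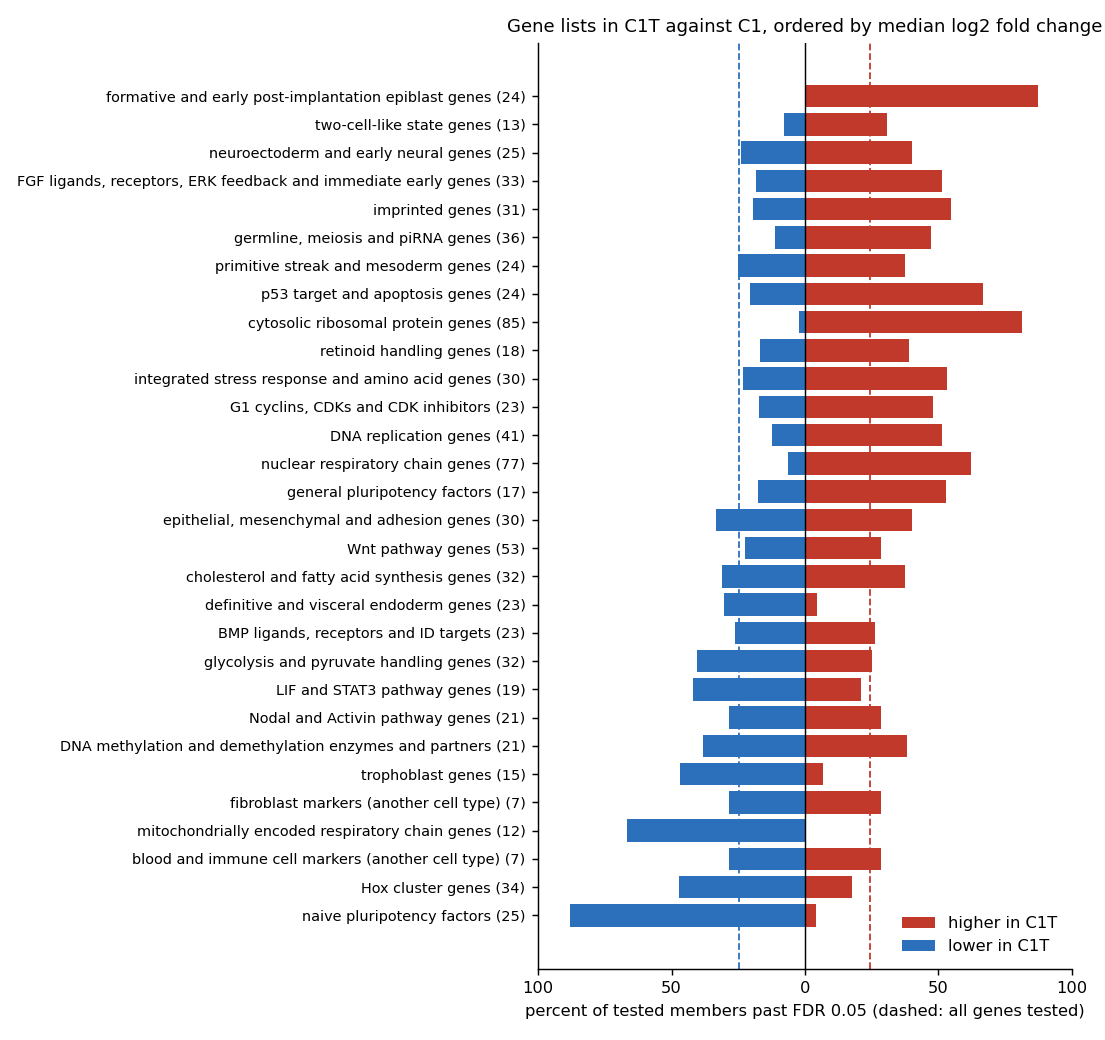
Bars give the percent of tested members of each of 30 gene lists that were higher (red, to the right) or lower (blue, to the left) in C1T than in C1 at an FDR under 0.05, with the number tested in brackets and the lists ordered by median log2 fold change. Dashed lines mark the shares over all 15280 genes, 24.4% and 24.9%, and the naive list (88% lower) and the formative list (87.5% higher) lie at the ends.

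Naive pluripotency factors fell almost throughout. Of 25 tested members 22 were lower, 1 was higher and 2 did not pass the threshold, with a median log2 fold change of -2.29. As these are bulk samples, fewer cells that express a gene and less RNA per cell cannot be told apart, here and below. Klf4, a LIF-responsive Krüppel-like factor, had 1350, 1234, 1158 and 1399 CPM in C1 and 41.8, 43.7, 36.7 and 37.9 CPM in C1T. The groups lay far apart, with a log2 fold change of -5.00 (SE 0.12, FDR = 7.5e-41). Tfcp2l1, a transcription factor downstream of LIF and STAT3, was counted at 1748, 1687, 1664 and 1665 CPM in C1 against 69.1, 68.7, 51.5 and 68.5 CPM in C1T, a log2 fold change of -4.71 (SE 0.09, FDR = 4.9e-97). Tbx3, a T-box factor of the naive state, went from 834, 840, 844 and 844 CPM to 61.9, 61.2, 35.8 and 40.5 CPM. Its decrease was 4.05 on the log2 scale (log2 fold change -4.05, SE 0.10, FDR = 3.6e-59).

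The core naive factors had smaller log2 fold changes than Klf4. Nanog had 584, 607, 615 and 517 CPM in C1 and 92.1, 89.5, 82.5 and 96.0 CPM in C1T (log2 fold change -2.69, SE 0.09, FDR = 9.9e-56). For the nuclear receptor Esrrb the log2 fold change was -2.62 (SE 0.10, FDR = 1.9e-42), and for Zfp42, which encodes REX1, the marker by which exit from the naive state is usually followed, it was -2.29 (SE 0.15, FDR = 3.0e-13). Zfp42 kept 74.8 to 114 CPM in C1T, so that its RNA was not lost at day 4. Klf5, another Krüppel-like factor, stood at 882 to 1107 CPM in C1T against 2842 to 3204 CPM in C1 (log2 fold change -1.54, SE 0.07, FDR = 6.1e-50). Prdm14, a repressor of FGF signalling and of DNA methylation in the naive state, went from 31.1 to 42.7 CPM down to 1.67 to 6.53 CPM.

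Of the 3 members that did not fall, Dppa3 was at or under the floor in all 8 libraries. Gbx2, a homeobox gene that is also a STAT3 target, was at 0.420, 1.13, 2.60 and 0.479 CPM in C1 and at 24.0, 32.5, 23.8 and 23.5 CPM in C1T, a rise of 4.50 (SE 0.38, FDR = 6.9e-22). Nr0b1, an orphan nuclear receptor that binds OCT4, had 40.8 to 100 CPM in C1 and 43.1 to 73.7 CPM in C1T, and its log2 fold change of -0.30 (FDR = 0.295) did not pass the threshold, though without C1 replicate 4 it did (-0.49, FDR = 0.0361).

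General pluripotency factors did not fall as a group. Of 17 tested members 9 were higher and 3 lower. Pou5f1, which encodes OCT4, had 76.0, 60.0, 79.9 and 59.4 CPM in C1 and 68.6, 65.4, 65.3 and 58.8 CPM in C1T. These ranges overlapped, and the log2 fold change was -0.09 (SE 0.12, FDR = 0.561). Pou5f1 has processed pseudogene copies, and as only uniquely aligned reads were counted its level is uncertain. Sox2 declined from 823 to 890 CPM down to 406 to 473 CPM (log2 fold change -0.96, SE 0.09, FDR = 1.1e-14). Tdgf1, a co-receptor of NODAL, was the largest fall of the list, at -1.15 (SE 0.09, FDR = 4.7e-17). In the other direction Lin28a, an inhibitor of let-7 maturation, went from 13.0, 17.0, 9.34 and 12.5 CPM to 465, 494, 543 and 422 CPM, the largest rise of the list (log2 fold change 5.22, SE 0.19, FDR = 4.6e-20). Utf1, a chromatin factor of the epiblast, had a mean of 32.5 ± 5.31 CPM in C1 and of 299 ± 24.5 CPM in C1T (SD, n = 4).

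Formative and early post-implantation epiblast genes showed the opposite pattern to the naive factors. Of 24 tested members 21 were higher, none was lower at this threshold and 3 did not pass it (Epha2, Tcf7l1 and Etv5), with a median log2 fold change of 3.15. Epha2, an ephrin receptor, had a log2 fold change of -0.55 (FDR = 0.0518) and was called lower under both other scalings, with at least 1 CPM required in all 8 libraries, with the replicate block, in a fit of the 8 libraries alone and when any of 3 libraries was left out. Lef1, a transcription factor that partners β-catenin, was the largest rise. It was counted at 1.68, 3.40, 2.08 and 2.88 CPM in C1 and at 281, 263, 246 and 291 CPM in C1T (log2 fold change 6.75, SE 0.19, FDR = 2.3e-65), in cells of the knockout line without dox. Pou3f1, the POU factor OCT6 of the post-implantation epiblast, had 4.20, 4.53, 4.15 and 4.31 CPM in C1 and 256, 225, 304 and 236 CPM in C1T (log2 fold change 5.88, SE 0.21, FDR = 1.3e-26). Fgf5, the classical marker ligand of this stage, was at or under the floor in every C1 library and at 13.0, 16.7, 18.6 and 12.4 CPM in C1T, which was at least 9.08-fold higher (FDR = 3.7e-18). Otx2, a homeobox factor that directs enhancers of the formative state, was already present in C1 at 65.2 to 91.5 CPM and reached 293 to 326 CPM (log2 fold change 2.03, SE 0.09, FDR = 1.5e-47). Sox3, a SOXB1 factor, rose by 4.49 on the log2 scale (SE 0.35, FDR = 1.2e-24). Tcf7l1, the TCF factor that β-catenin opposes at naive genes, had means of 156 CPM in C1 and 150 CPM in C1T, a log2 fold change of -0.05 that did not pass the threshold.

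**Figure D2:**
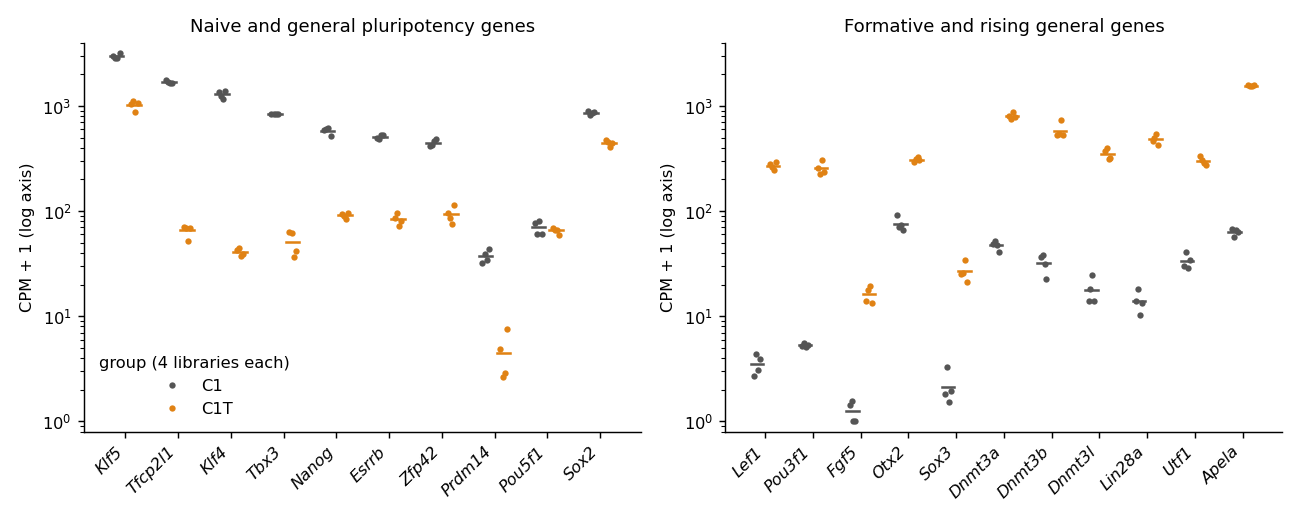
Each point is the CPM plus 1 of 1 library on a log axis for C1 (grey) and C1T (orange), 4 libraries each, and short lines are means. Klf4 and Tfcp2l1 dropped from over 1158 CPM to under 70 CPM and Lef1 and Pou3f1 rose from under 5 CPM to over 200 CPM in every library, while the Pou5f1 libraries of the 2 groups overlapped.

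Promoter sequences of the 3 largest rises of the formative list and of the 3 largest falls of the naive list, by the fitted value, that had an entry in the promoter table are shown, as the ends of these lists. Pou3f1 had no entry. Each run spans 250 bases before to 50 bases after a RefSeq start on GRCm38.p6, 5′ to 3′ on the strand of the gene. The windows are chr3:131110073-131110372 (plus strand) for Lef1, chr5:98253934-98254233 (plus) for Fgf5, chrX:7878056-7878355 (plus) for Pim2, chr4:55532426-55532725 (minus) for Klf4, chr1:118627695-118627994 (plus) for Tfcp2l1 and chr11:117969317-117969616 (minus) for Socs3. Where a gene had several entries, the one nearest to the start in the GENCODE annotation was taken, which was 148 bases away for Lef1 and 681 bases for Socs3. Capitals mark matches on either strand to 4 short motifs. The TATA box was searched as TATAAA. A GC box was searched as GGGCGG. The binding motif of NF-Y was searched as CCAAT. For TCF and LEF factors the core searched was CTTTGA.
Lef1: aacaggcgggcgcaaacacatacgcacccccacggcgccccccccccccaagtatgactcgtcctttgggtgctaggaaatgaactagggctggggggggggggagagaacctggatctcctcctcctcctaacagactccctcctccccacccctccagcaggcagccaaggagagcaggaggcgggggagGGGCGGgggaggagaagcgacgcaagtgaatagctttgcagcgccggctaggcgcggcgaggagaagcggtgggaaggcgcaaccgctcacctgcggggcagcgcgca
Fgf5: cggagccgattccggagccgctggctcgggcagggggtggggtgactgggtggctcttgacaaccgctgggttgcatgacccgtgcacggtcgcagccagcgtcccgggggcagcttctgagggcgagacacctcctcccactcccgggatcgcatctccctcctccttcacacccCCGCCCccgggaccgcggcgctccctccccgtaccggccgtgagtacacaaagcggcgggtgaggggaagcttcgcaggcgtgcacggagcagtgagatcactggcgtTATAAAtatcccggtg
Pim2: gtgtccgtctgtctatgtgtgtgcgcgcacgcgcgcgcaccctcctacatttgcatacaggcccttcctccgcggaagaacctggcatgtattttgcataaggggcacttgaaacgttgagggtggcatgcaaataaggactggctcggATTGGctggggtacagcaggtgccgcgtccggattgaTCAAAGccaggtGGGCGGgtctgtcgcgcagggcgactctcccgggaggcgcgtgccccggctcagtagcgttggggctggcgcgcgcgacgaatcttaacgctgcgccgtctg
Klf4: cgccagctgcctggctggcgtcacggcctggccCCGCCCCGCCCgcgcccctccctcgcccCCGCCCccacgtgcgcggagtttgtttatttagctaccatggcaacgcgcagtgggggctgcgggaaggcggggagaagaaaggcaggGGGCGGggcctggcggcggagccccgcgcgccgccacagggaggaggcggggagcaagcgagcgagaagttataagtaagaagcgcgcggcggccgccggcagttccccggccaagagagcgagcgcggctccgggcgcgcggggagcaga
Tfcp2l1: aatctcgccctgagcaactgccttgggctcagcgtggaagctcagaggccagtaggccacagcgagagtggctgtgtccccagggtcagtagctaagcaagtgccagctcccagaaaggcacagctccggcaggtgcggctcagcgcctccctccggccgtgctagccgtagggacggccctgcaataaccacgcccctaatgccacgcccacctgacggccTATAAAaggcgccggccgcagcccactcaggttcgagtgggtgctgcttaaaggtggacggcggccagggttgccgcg
Socs3: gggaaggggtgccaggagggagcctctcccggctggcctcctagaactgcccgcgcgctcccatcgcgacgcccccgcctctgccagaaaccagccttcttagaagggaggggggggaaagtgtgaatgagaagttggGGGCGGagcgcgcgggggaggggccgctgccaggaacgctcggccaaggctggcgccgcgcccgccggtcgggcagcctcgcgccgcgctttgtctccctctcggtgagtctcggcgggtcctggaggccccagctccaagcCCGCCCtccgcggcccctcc
A GC box was found in all of these windows other than that of Tfcp2l1, with 4 matches in Klf4, and 35.7% of 32851 promoters of this length hold one. TATAAA was found 28 bases before the start of Tfcp2l1 and 34 bases after that of Fgf5 (13.6% of promoters). A TCF/LEF core was present in the window of Pim2 (16.0% of promoters), which also held the one CCAAT match (37.4%). All 6 windows were rich in CG pairs, with 21 to 40 of them against a median of 7 over all promoters. A match is a description of letters and not of binding.

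In the list of DNA methylation genes members moved in both directions. Of 21 tested members 8 were higher and 8 lower. Dnmt3a, a de novo methyltransferase, had 47.9, 51.5, 46.2 and 39.8 CPM in C1 and 793, 748, 876 and 777 CPM in C1T (log2 fold change 4.11, SE 0.09, FDR = 1.9e-83). Dnmt3b, the other de novo enzyme, went from 35.3, 37.4, 30.1 and 21.6 CPM to 525, 536, 728 and 534 CPM (log2 fold change 4.23, SE 0.11, FDR = 6.9e-50), and C1T replicate 3 stood above the rest. Their catalytically inactive cofactor Dnmt3l rose by 4.40 (SE 0.16, FDR = 5.9e-25). The maintenance enzyme Dnmt1 had 168 to 226 CPM in C1 and 160 to 188 CPM in C1T, and its log2 fold change of -0.23 (FDR = 0.0199) lost the call when any of 5 libraries was left out. Uhrf1, which recruits DNMT1 to replicated DNA, fell by 0.95 (SE 0.11, FDR = 1.8e-09). Among the TET dioxygenases, Tet2 fell from 424 to 498 CPM down to 31.9 to 56.1 CPM (log2 fold change -3.42, SE 0.11, FDR = 3.9e-48) and Tet1 from 911 to 1026 CPM down to 573 to 699 CPM (log2 fold change -0.59, SE 0.07, FDR = 3.5e-11). Zfp57, which protects methylated imprints, fell by 1.74 (SE 0.11, FDR = 7.9e-22). The extremes of the list were a pair of stress-response paralogues. Gadd45b went from 103, 113, 72.7 and 88.2 CPM to 1.44, 2.08, 1.91 and 3.92 CPM (log2 fold change -5.37, SE 0.24, FDR = 3.5e-44), and Gadd45g from 5.04, 5.10, 1.56 and 5.75 CPM to 288, 272, 227 and 282 CPM (log2 fold change 5.90, SE 0.21, FDR = 4.4e-27).

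Genes of the signals that were withdrawn or released moved in both directions. In the LIF and STAT3 list 8 of 19 tested members were lower and 4 higher, with Klf4 the largest fall and Gbx2 the largest rise. Socs3, the feedback inhibitor of this pathway, had 42.0, 61.2, 48.8 and 38.4 CPM in C1 and 1.44, 2.08, 1.91 and 2.61 CPM in C1T (log2 fold change -4.54, SE 0.25, FDR = 4.4e-37), and Stat3 itself fell by 2.00 (SE 0.12, FDR = 4.4e-34). In the list of FGF ligands, receptors and ERK feedback genes 17 of 33 were higher and 6 lower, with a median of 0.91. Dusp6, an ERK phosphatase induced by ERK, went from 6.30, 4.53, 7.79 and 4.32 CPM to 89.3, 72.5, 67.7 and 73.8 CPM (log2 fold change 3.71, SE 0.19, FDR = 9.4e-42). Spry2, an inhibitor of receptor tyrosine kinase signalling, stood at 40.6 ± 7.19 CPM in C1 and 240 ± 17.4 CPM in C1T (SD, n = 4), and the ETS factor Etv4 rose by 2.39 (SE 0.15, FDR = 4.8e-22). By the fitted value the largest rise of the list was Fgf5. The ligand Fgf4 fell from 332 to 412 CPM down to 110 to 147 CPM (log2 fold change -1.46, SE 0.09, FDR = 3.0e-35), and Fgf2, the largest fall of the list by the fitted value, was at the floor in C1T, at least 2.02-fold lower (FDR = 2.0e-05).

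In the Wnt pathway list 15 of 53 tested members were higher (28.3%) and 12 lower (22.6%), close to the shares over all genes, with a median of 0.08. Lef1 was the largest rise and the caudal homeobox gene Cdx1, at the floor in C1T and at least 1.88-fold lower, the largest fall by the fitted value. The receptor gene Fzd2 went from 4.20, 0.566, 1.04 and 1.44 CPM to 35, 34.6, 46.2 and 35.9 CPM (log2 fold change 4.24, SE 0.28, FDR = 6.1e-30). Ccnd1, a cyclin that is often listed as a Wnt target, rose by 2.87 (SE 0.12, FDR = 3.6e-52). The secreted inhibitor Sfrp1 fell from 1073, 923, 927 and 1092 CPM to 165, 182, 167 and 182 CPM (log2 fold change -2.53, SE 0.07, FDR = 5.4e-69). The ligand Wnt3 was at the floor in C1 and at 2.91 to 8.11 CPM in C1T, at least 3.15-fold higher (FDR = 1.7e-06).

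In the Nodal and Activin list 6 of 21 tested members were higher and 6 lower (28.6% each), near the shares over all genes. Lefty1, a feedback inhibitor of NODAL, had 3.78, 5.66, 4.67 and 5.27 CPM in C1 and 205, 205, 191 and 209 CPM in C1T (log2 fold change 5.39, SE 0.26, FDR = 1.4e-16). Lefty2 rose by 3.23 (SE 0.21, FDR = 4.2e-22), though the split of reads between these near-identical genes is uncertain. Nodal itself had 61.2 to 75.8 CPM in C1 and 52.9 to 61.6 CPM in C1T and did not pass the threshold (log2 fold change -0.21, FDR = 0.166). The largest fall was Smad7, an inhibitory SMAD, from 198 to 225 CPM down to 17.6 to 29.4 CPM (log2 fold change -3.27, SE 0.13, FDR = 3.8e-43). It was also the largest fall of the BMP list, in which 6 of 23 genes were higher and 6 lower (26.1% each), near the shares over all genes. The ligand Bmp4 was the largest rise of the BMP list, from 6.72, 10.8, 6.23 and 8.63 CPM to 52.3, 52.9, 45.3 and 48.3 CPM (log2 fold change 2.63, SE 0.22, FDR = 1.4e-21).

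Lineage lists held genes that moved in both directions at day 4. In the neuroectoderm list 10 of 25 tested members were higher (40%) and 6 lower (24%), where 24.4% and 24.9% of all genes were. Sox11, a neural progenitor factor, had 10.1, 11.9, 8.82 and 13.9 CPM in C1 and 252, 244, 326 and 256 CPM in C1T (log2 fold change 4.59, SE 0.13, FDR = 2.1e-70). Pax6 was at the floor in C1 and at 23.0, 23.3, 31.5 and 18.3 CPM in C1T, at least 14.4-fold higher (FDR = 6.6e-25). Sox1, the earliest neuroectoderm marker, went from 21.0 to 24.4 CPM up to 80.6 to 106 CPM (log2 fold change 2.02, SE 0.13, FDR = 4.4e-31), and the neuronal tubulin gene Tubb3 rose by 2.62 (SE 0.16, FDR = 2.4e-32). By the fitted value the largest rise was Crabp2, a retinoic acid binding protein, at least 12.9-fold higher, and the largest fall was Pou3f2, which was at 0 in C1T and did not exceed 1.68 CPM in C1, a call lost without C1 replicate 1 (FDR = 0.0894). The 6 neural markers used to check identity summed to 41.9 to 47.9 CPM in C1 and 174 to 208 CPM in C1T, and the 7 pluripotent markers to 2671 to 2745 CPM and 1257 to 1405 CPM.

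In the primitive streak and mesoderm list 9 of 24 were higher (37.5%) and 6 lower (25%), shares close to those of the neuroectoderm list. By the fitted value its largest rise was Hoxb1, which was also the largest by that value among all genes that the rule for named genes took. Hoxb1 had 0, 0, 0 and 0.479 CPM in C1 and 96.0, 96.2, 68.2 and 82.9 CPM in C1T, at least 51.4-fold higher (FDR = 8.3e-29). The organizer gene Gsc moved the other way, from 13.9, 9.06, 5.71 and 9.59 CPM to the floor, at least 5.00-fold lower (FDR = 8.0e-14), and the T-box gene Eomes fell by 1.10 (SE 0.18, FDR = 3.7e-08). Brachyury (T), Mesp1 and Tbx6, which define nascent mesoderm, were at or under the floor in all 8 libraries. The 6 mesoderm markers summed to 16.8 to 18.2 CPM in C1 and 4.32 to 9.06 CPM in C1T.

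Trophoblast genes were mostly lower or not past the threshold, with 7 of 15 lower and 1 higher (Gcm1, from the floor to a mean of 2.33 CPM). The number higher was 2 with the replicate block, with no filter, and without C1 replicate 2, 3 or 4 or C1T replicate 1. Cdx2 and Elf5 were at or under the floor throughout. Among markers of other cell types, 2 of 7 fibroblast and 2 of 7 blood genes were higher and as many were lower (28.6% in each case, near the shares over all genes). In the blood list the lysosomal gene Cd68 was the largest fall, from 82.3 ± 7.67 CPM to 11.0 ± 1.68 CPM (SD, n = 4), and Itgam the largest rise, from a mean of 1.88 to 9.31 CPM. In the fibroblast list Thy1 (means 0.721 and 3.53 CPM) and Pdgfrb (1.99 and 0 CPM) were at the ends by the fitted value. Col1a2, Lum and Postn, Ptprc, Hbb-y and Gata1 were at or under the floor in all 8 libraries. The part of such cells in the results was not tested.

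Hox genes, which are ordered along each cluster from paralogues expressed anteriorly to those expressed posteriorly in the embryo, divided by paralogue number. This grouping was made after their values were seen and carries no test. Of 34 tested genes 16 were lower and 6 higher. All of the 6 that rose had the numbers 1 to 5 (12 tested, 2 of them lower), whereas 12 of the 16 tested genes with the numbers 9 to 13 were lower and none was higher at this threshold. Hoxb9 went from a mean of 24.4 CPM to 2.39 CPM (log2 fold change -3.22) and Hoxd9 from 14.5 to 1.52 CPM (-3.27). In the other direction Hoxa5 had means of 5.21 CPM in C1 and 15.4 CPM in C1T (log2 fold change 1.57). The largest fall by the fitted value was Hoxc12, at 2.52 to 3.96 CPM in C1 and 0 in every C1T library, at least 1.70-fold lower. Hoxc4 and Hoxb4 were lower despite their low numbers, and 16 of the 34 genes were at or under the floor in at least 1 group, so the depth limits this list.

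**Figure D3:**
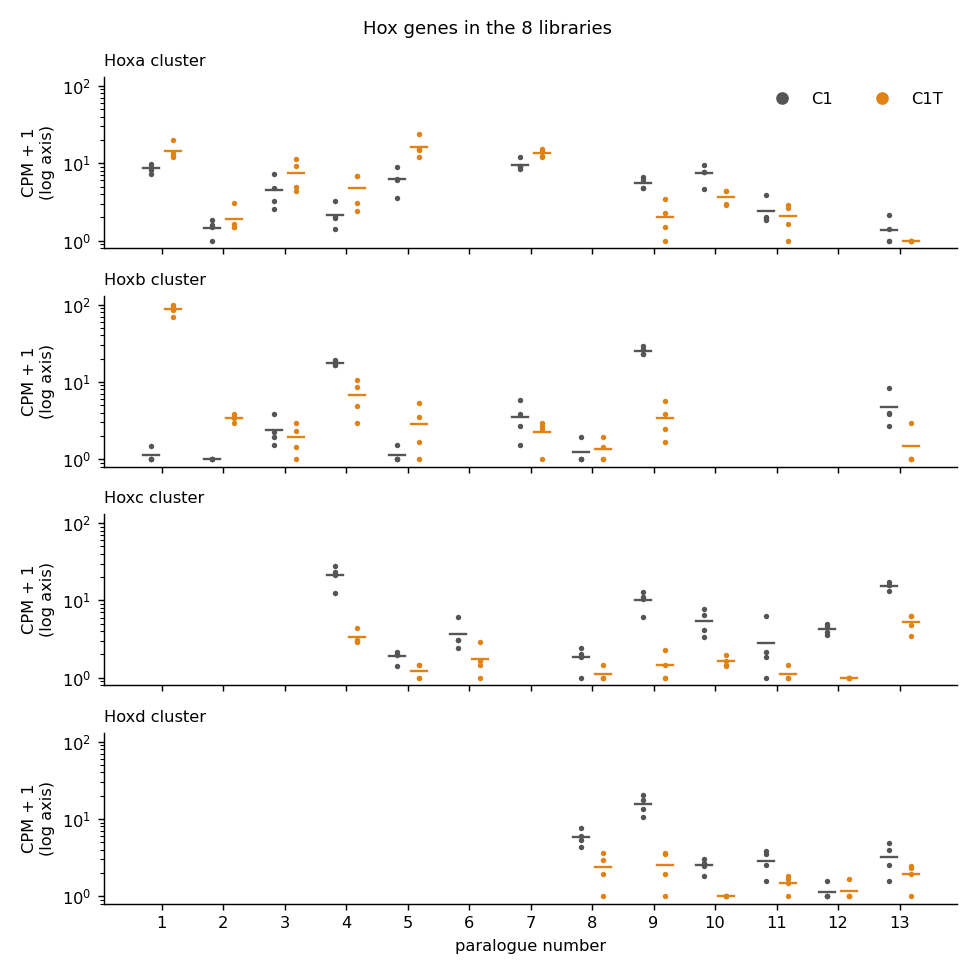
Points are the CPM plus 1 of each library on a log axis for the tested genes of the 4 Hox clusters by paralogue number, C1 in grey and C1T in orange, with means as short lines. Hoxb1 stands out at 68.2 to 96.2 CPM in C1T, and most genes with the numbers 9 to 13 lie lower in C1T.

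To see where the response of the uninduced knockout cells differed, the change from C1 to C1T was set against the mean change of the 4 comparisons in which dox and TMP had induced the fusion before sorting (C1MV, C1MDT, C1HV and C1HDT at day 4 against C1M and C1H at day 0, for moderate and high fractions with inducers withdrawn or kept). These responses share no library with C1 and C1T. The induced cells also differed from C1 and C1T by exposure to dox and by sorting on mCherry. C1MV and C1HV differentiated with DMSO, where C1T had TMP. These differences cannot be told apart from the fusion, and their part in the results was not tested. The difference of responses passed the threshold for 4346 genes (28.4%), in the positive direction, more toward higher levels in C1T, for 2283 (14.9%) and in the negative direction for 2063 (13.5%), with a median of 0.05 on the log2 scale over all genes. The mean induced response itself was past the threshold for 67.4% of the genes, with 30.9% higher and 36.5% lower at day 4. For 978 genes that changed in C1T vs C1 and passed this test, the mean induced response had the opposite sign.

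In the definitive and visceral endoderm list 7 of 23 tested members (30.4%) were lower in C1T than in C1, near the 24.9% over all genes, and 1, Gata6, was higher. In the mean induced response 20 of 23 were higher, where 30.9% of all genes were, and the difference was negative and past the threshold for 17 and positive for none at that threshold. Sparc, a matrix glycoprotein abundant in parietal endoderm, had 1410, 1227, 1208 and 1472 CPM in C1 and 195, 209, 235 and 234 CPM in C1T. It fell by 2.61 on the log2 scale (SE 0.07, FDR = 3.5e-70) where the mean induced response was a rise of 1.74, a difference of -4.35 (FDR = 5.3e-90). Day 0 means of Sparc were 1330 CPM in C1, 856 CPM in C1M and 755 CPM in C1H, and the 4 induced groups had 2149 to 3249 CPM at day 4 against 218 CPM in C1T. The laminin gene Lama1 went from 13.4, 10.8, 16.1 and 15.3 CPM to 3.36, 3.75, 4.29 and 6.53 CPM (log2 fold change -1.68), with a difference of -5.33 (FDR = 1.1e-15), the most negative of all that the rule took. Lamc1, another laminin chain, fell by 2.67 (SE 0.09). The collagen IV genes Col4a1 (24.6 ± 2.03 and 30.4 ± 4.16 CPM, FDR = 0.126) and Col4a2 (18.0 ± 1.07 and 12.5 ± 1.47 CPM, FDR = 0.0232; SD, n = 4) had differences of -4.15 and -4.58, and the call of Col4a2 in C1T vs C1 was lost when any of 3 libraries was left out. The endoderm factor Sox17 was the largest fall of the list by the fitted value, from 1.13 to 3.36 CPM in C1 to the floor (at least 1.24-fold lower), with a fitted difference of -5.05. Foxa2 stayed under 4 CPM in all 8 libraries with a log2 fold change of 0.09 (FDR = 0.900). Gata6, the factor that specifies primitive endoderm, was at 0.479 to 2.94 CPM in C1 and 1.96 to 4.58 CPM in C1T, and its call (FDR = 0.0446) was lost under 3 other ways of fitting and when any of 5 libraries was left out.

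In the list of germline, meiosis and piRNA genes 17 of 36 tested members were higher in C1T (47.2%) and 4 lower (11.1%), where 24.4% and 24.9% of all genes were. In the mean induced response 24 were lower and 6 higher, where 36.5% and 30.9% of all genes were, and the difference was positive for 25 and negative for 1 (Dnd1). Sycp1, a protein of the synaptonemal complex, had 2.52, 5.66, 4.67 and 5.27 CPM in C1 and 33.1, 30.8, 23.8 and 21.5 CPM in C1T (log2 fold change 2.63, SE 0.25, FDR = 1.0e-18), a difference of 4.61 (FDR = 2.4e-34). Taf7l, a TFIID subunit of male germ cells on the X chromosome, went from 12.2, 12.5, 18.7 and 10.6 CPM to 82.5, 75.0, 52.4 and 96.6 CPM (log2 fold change 2.50, SE 0.19, FDR = 2.3e-17). Mael, a piRNA pathway protein, rose by 3.22 (SE 0.29, FDR = 7.8e-20), and Ddx4, the germ cell helicase VASA, from 4.49 ± 2.47 to 17.9 ± 4.65 CPM (SD, n = 4). Tdrd1 was the largest rise of the list by the fitted value, from the floor to a mean of 5.03 CPM, at least 3.01-fold higher. Dazl, an RNA-binding protein of germ cells, stood at 15.3 to 20.4 CPM in C1 and 13.3 to 25 CPM in C1T with no change past the threshold (FDR = 0.894), where the mean induced response was -2.61. The starting levels differed as well as the responses. At day 0 the means in C1M and C1H were 76.6 and 77.7 CPM for Dazl against 18.3 CPM in C1, 28.4 and 38 CPM for Sycp1 against 4.53 CPM, 56.4 and 77.3 CPM for Taf7l against 13.5 CPM and 62.3 and 75.9 CPM for Stra8 against 23.0 CPM. At day 4 the Dazl means were 9.93 to 17.1 CPM in the induced groups and 18.4 CPM in C1T. The largest fall was Stra8, the gatekeeper of meiosis, at -1.26 (SE 0.22, FDR = 3.2e-07), against -4.63 in the mean induced response. Two-cell-like genes other than Eif1a had means under 5 CPM in both groups. Of 13 tested 4 were higher, with Zfp352 first by the fitted value (listed at 0 in C1, 2.50 to 4.57 CPM in C1T, at least 1.99-fold higher), 1 was lower (Eif1a, means 205 and 144 CPM, log2 fold change -0.51), and the difference was positive for 8.

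**Figure D4:**
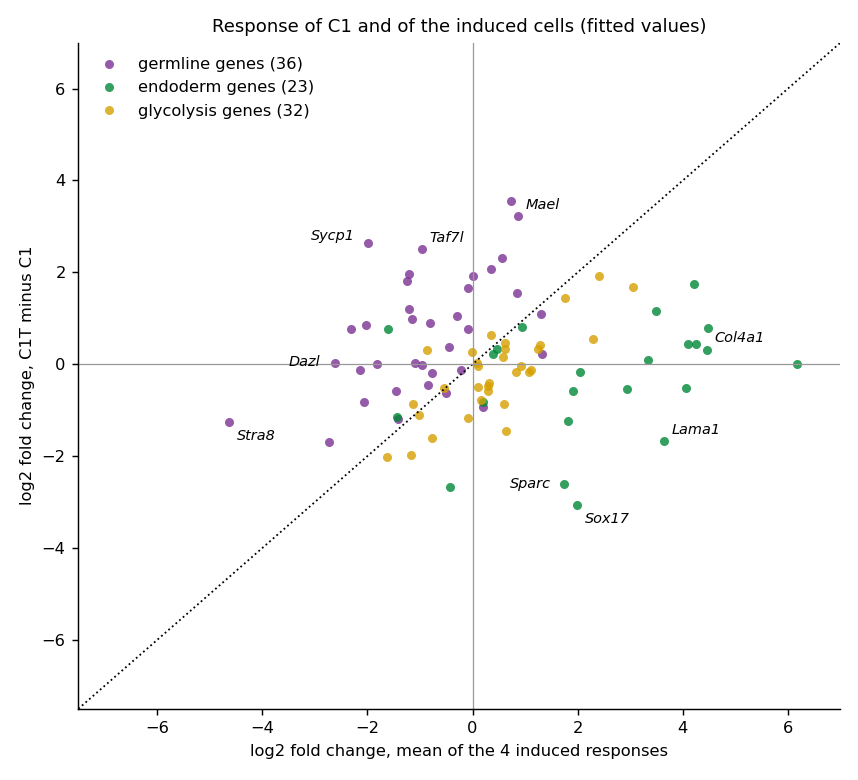
Each point is 1 tested gene of the germline (purple), endoderm (green) or glycolysis (gold) list, placed by its fitted log2 fold change in the mean of the 4 induced responses (horizontal) and in C1T minus C1 (vertical), with the diagonal of equal response dotted. Endoderm genes lie mostly below the diagonal, as Sparc at -2.61 against 1.74, and germline genes mostly above it, as Sycp1 at 2.63 against -1.99.

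Epithelial, mesenchymal and adhesion genes were mixed, with 12 of 30 higher and 10 lower. Cdh1, which encodes E-cadherin, had 216, 228, 251 and 240 CPM in C1 and 296, 254, 366 and 283 CPM in C1T, a small rise (log2 fold change 0.36, SE 0.08, FDR = 6.6e-05) where the mean induced response was -1.69. Day 0 means of Cdh1 were 234 CPM in C1, 619 CPM in C1M and 584 CPM in C1H, and day 4 means were 179 to 201 CPM in the induced groups and 299.8 CPM in C1T. Cdh2 rose by 0.87 (FDR = 0.0125), a call lost without C1 replicate 1 (FDR = 0.0855) or C1T replicate 1 (FDR = 0.0560). The fibronectin gene Fn1 fell from 979 to 1066 CPM down to 162 to 173 CPM (log2 fold change -2.60, SE 0.08, FDR = 6.9e-70), and vimentin (Vim) rose by 1.92 (SE 0.10, FDR = 4.4e-39). The splicing regulator Esrp1 was the largest rise by the fitted value (at least 7.27-fold higher) and the tight junction gene Cldn4 the largest fall, from 58.6 ± 5.00 to 8.62 ± 2.75 CPM (SD, n = 4).

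Among G1 cyclins, kinases and inhibitors 11 of 23 were higher and 4 lower, and the D cyclins moved in opposite directions. Ccnd2 went from 5.46, 4.53, 3.11 and 1.92 CPM to 183, 169, 170 and 149 CPM (log2 fold change 5.45, SE 0.19, FDR = 1.3e-52), Ccnd1 from 23.5 to 34.5 CPM up to 193 to 279 CPM, and Ccnd3 from 504 to 666 CPM down to 240 to 263 CPM (log2 fold change -1.16, SE 0.08, FDR = 7.7e-28). Cdkn1c, an imprinted CDK inhibitor, rose by 3.74 (SE 0.26, FDR = 1.1e-28). Of 24 tested p53 target and apoptosis genes 16 were higher (66.7%) and 5 lower (20.8%), where 24.4% and 24.9% of all genes were. The BH3-only genes Pmaip1 (NOXA; 4.36 ± 2.06 to 26.7 ± 2.66 CPM) and Bbc3 (PUMA; 7.16 ± 2.10 to 34 ± 4.09 CPM; SD, n = 4) rose by 2.67 and 2.26, and the survival gene Bcl2l1 was the largest fall, at -0.97 (SE 0.14, FDR = 3.7e-09). In the imprinted list 17 of 31 were higher and 6 lower. The noncoding RNA Meg3 had 885, 752, 851 and 850 CPM in C1 and 3013, 3065, 3558 and 3230 CPM in C1T (log2 fold change 1.95, SE 0.08, FDR = 8.0e-31). Snrpn rose by 2.84 (SE 0.10, FDR = 4.1e-57), though it shares its transcript with Snurf. Nnat was the largest rise (4.36, SE 0.41, FDR = 4.4e-11) and Plagl1 the largest fall (-2.67, SE 0.25, FDR = 4.7e-19). Of 18 retinoid genes 7 were higher and 3 lower, with the receptor gene Rxrg (0 in C1, 7.08 to 13.0 CPM in C1T, at least 5.46-fold higher) and the retinaldehyde dehydrogenase gene Aldh1a3 (27.7 to 29.7 CPM in C1 to the floor, at least 15.0-fold lower) at the ends by the fitted value.

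Genes of growth and metabolism moved by smaller amounts in large numbers. Of 85 tested cytosolic ribosomal protein genes 69 (81.2%) were higher and 2 lower, with a median log2 fold change of 0.64, and their summed level was 74177 to 82432 CPM in C1 and 108688 to 113120 CPM in C1T. Rpl3l, a paralogue of muscle at under 7 CPM, was the largest fall, a call lost without C1T replicate 2 (FDR = 0.0716). Many of these genes have processed pseudogenes, and as only uniquely aligned reads were counted their levels are uncertain. Of 77 nuclear genes of the respiratory chain 48 (62.3%) were higher and 5 lower, with a median of 0.31, from Ndufb3 (1.28) to Cox5a (-0.90). Of 12 genes of the mitochondrial genome none was higher at this threshold and 8 were lower, with a median of -0.70 and a largest fall in mt-Co2 (17.4 ± 3.2 to 3.48 ± 1.18 CPM). Their summed level was 21463 to 26475 CPM in C1 and 16271 to 18660 CPM in C1T. As only uniquely aligned reads were counted, the level of mt-Co2, low beside this sum, is uncertain. In the mean induced response the median of these 12 genes was -1.72, and the difference was positive for 8. Of 32 glycolysis and pyruvate genes 8 were higher (25%, near the 24.4% over all genes) and 13 lower (40.6%, where 24.9% of all genes were). The ends were the glucose transporter gene Slc2a1 (77.7 ± 11.3 to 296 ± 20.3 CPM, log2 fold change 1.92) and the phosphofructokinase gene Pfkp (314 ± 12.9 to 77.9 ± 12.0 CPM, -2.02, SD, n = 4). The difference was negative for 21 of these 32 genes, where it was for 13.5% of all genes, and positive for none at this threshold. In the mean induced response 19 of the 32 were higher and 7 lower, where 30.9% and 36.5% of all genes were.

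**Figure D5:**
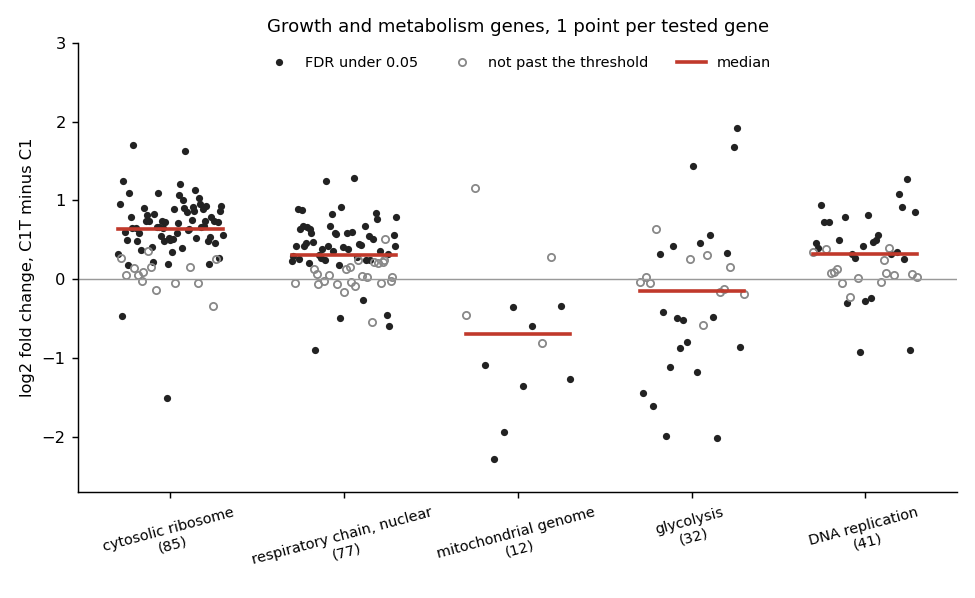
Each point is the log2 fold change of 1 tested gene in C1T against C1, filled where the FDR was under 0.05, with the number of genes per list in brackets and the median as a red line. Medians were 0.64 for ribosomal protein genes, 0.31 for nuclear respiratory chain genes and -0.70 for genes of the mitochondrial genome.

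Of 41 DNA replication genes 21 were higher (51.2%) and 5 lower (12.2%). The ends were Rpa2, a subunit of the single-strand binding complex (326 ± 28.8 to 784 ± 49.5 CPM), and Orc1 of the origin recognition complex (62.1 ± 5.36 to 33.5 ± 7.52 CPM, SD, n = 4). Of 32 cholesterol and fatty acid genes 12 were higher (37.5%) and 10 lower (31.2%), where 24.4% and 24.9% of all genes were. The desaturase gene Scd1 was the largest fall, at -1.40. Of 30 integrated stress response and amino acid genes 16 were higher and 7 lower. By the fitted value Slc7a11 was the largest rise, though it did not exceed 1.96 CPM in any library, and Nupr1 was the largest fall, at -1.19 (SE 0.09, FDR = 2.0e-24).

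Over all genes, the largest changes among annotated protein-coding genes were taken by estimated log2 fold change where the 8 libraries did not overlap and the mean log2 CPM was at least 3. The 15 largest rises were Hoxb1, Bcl11a, Lef1, Gadd45g, Pou3f1, Slc7a7, Ccnd2, Lefty1, Lin28a, Igsf9, Pim2, Sulf1, Dusp4, Lpar4 and Apela, from 8.94 for Hoxb1 by the fitted value to 4.63 for Apela. Bcl11a, a zinc finger repressor of neural and blood lineages, was at the floor in C1 and at 60.5, 45.8, 66.3 and 61.4 CPM in C1T, at least 35-fold higher (FDR = 2.4e-40). Apela, which encodes the secreted peptide ELABELA, had 66.7, 55.5, 64.9 and 62.8 CPM in C1 and 1578, 1534, 1539 and 1582 CPM in C1T (SE 0.09, FDR = 2.3e-94). Sulf1, an enzyme that trims heparan sulphate, had 135 ± 5.94 CPM in C1T against 4.40 ± 1.88 CPM in C1, the amino acid transporter gene Slc7a7 had 130 ± 13.8 against 2.16 ± 0.69 CPM and the phosphatase gene Dusp4 36.7 ± 3.66 against 1.32 ± 0.68 CPM (SD, n = 4).

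The 15 largest falls were Aqp3, Ly6a, Cited4, Calcoco2, Xaf1, Serpinb6c, Slc13a5, Tgm2, Gadd45b, Adam11, Nid1, S100a13, Myof, Htra1 and Klf4. Aqp3, a channel for water and glycerol, led them with 386, 428, 345 and 296 CPM in C1 and 5.28, 5.00, 4.29 and 1.96 CPM in C1T (log2 fold change -6.38, SE 0.17, FDR = 4.0e-51). Calcoco2, an autophagy receptor, had 1005, 901, 859 and 945 CPM in C1 and 18.7, 16.2, 12.9 and 17.0 CPM in C1T (log2 fold change -5.84, SE 0.11, FDR = 2.3e-94). Nid1, the basement membrane linker nidogen, fell by 5.26 (SE 0.13, FDR = 5.0e-77), the citrate transporter gene Slc13a5 by 5.58 (SE 0.21, FDR = 7.8e-57), the transglutaminase gene Tgm2 by 5.46 (SE 0.17, FDR = 4.1e-65) and Ly6a, which encodes the surface antigen SCA-1, by 6.23 (SE 0.26, FDR = 2.4e-50). Htra1, a secreted serine protease, went from 69.2, 59.5, 67.5 and 62.3 CPM to 0.480, 2.08, 3.34 and 1.96 CPM (log2 fold change -5.00, SE 0.24) where the mean induced response was -0.31, a difference of -4.70 (FDR = 4.8e-36). Serpinb6c, at least 23.3-fold lower in C1T, had a difference of -4.43 by the fitted values, though it belongs to a family of close copies among which reads may be split.

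In the difference of responses the 5 most positive genes under the rule were Sema6a, Hoxb1, Sycp1, Bcl11a and Proser3, and the 5 most negative were Lama1, Htra1, Col4a2, Serpinb6c and Sparc. Sema6a, a transmembrane semaphorin, had 2.94, 2.26, 1.56 and 0.959 CPM in C1 and 48, 34.1, 45.3 and 30.7 CPM in C1T (log2 fold change 4.31, SE 0.33, FDR = 1.7e-24), against a mean induced response of -0.84. Proser3 had 2.75 ± 1.34 CPM in C1 and 24.9 ± 6.32 CPM in C1T (SD, n = 4), a rise of 3.2 against -0.72. Formative genes were divided in this comparison. The difference was positive for 10 of 24, among them Pou3f1 (2.07), Dnmt3a (1.86) and Lef1 (1.42), and negative for 5, while that of Dnmt3b (0.09, FDR = 0.709) did not pass the threshold. In the naive list it was negative for 11 of 25, such as Klf4 (-1.45), and positive for 7, such as Gbx2 (2.83) and Nr0b1 (1.94), and for Nr0b1 the mean induced response was -2.23.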

How the data were processed

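RNA 3′ ends were sequenced with QuantSeq in 32 libraries of 8 groups of 4. The values the authors deposited are whole-number counts of uniquely aligned reads per Ensembl gene, without normalization. According to the study's methods, trimming was done with bbduk, alignment to mm10 with STAR, and counting with htseq-count, and the strand setting is not given in the sources used here. Groups and replicate numbers were read from the labels, and lines that name no gene were left out.

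Using edgeR 4.0.16 in R 4.3.3, counts were scaled by TMM and the robust quasi-likelihood test was run in one fit of all 32 libraries, over 15280 genes that reached 1 CPM in 4 or more libraries, with Benjamini-Hochberg adjustment and a threshold of 0.05. SE is the absolute log2 fold change divided by the root of F. Contrasts were C1T minus C1, and this difference minus the mean induced response. Precision follows from 1570743 to 2493356 counts per library, and floors of 3 counts per library cover counting error only. Where a group was at the floor, bounds were set against 3 counts in its shallowest library. Genes were named with the GENCODE annotation of GRCm38, which named 31011 of 31053 identifiers, and promoters are from RefSeq (GRCm38.p6).

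Named genes were Ctnnb1, Axin2, members of 30 lists with the extremes of each (some members are not reported here), and the largest changes as described. The members and lists were chosen with earlier results of these data known, so lists are described by counts and medians without a test. Alternatives were RLE factors, library size only, DESeq2 1.42.0, no filter, at least 1 CPM in all 8 libraries, the replicate number as a block, a fit of the 8 libraries alone and each library left out. Replicate numbers recur in both groups, and same-numbered libraries deviated from their group means with r between -0.034 and 0.0183, and the study's batch correction for correlations treated replicates as batches, so the block was run as an alternative to the unblocked comparison. The steps were tested on simulated data.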

Additional observations from a re-analysis of the deposited data

Results flagged for a closer look

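In single genes named above, the change from C1 to C1T differed from the mean induced response by edgeR's test of the difference itself (FDR under 0.05 over all 15280 genes). Values are the log2 fold change from C1 to C1T minus the mean induced one, so a negative value can be a deeper fall or a smaller rise in C1T. They also depend on day 0 levels, which differed between C1 and the induced cells for genes such as Klf4, Sparc, Cdh1 and Dazl. The largest positive differences were those of Zfp352 (6.06), Slc7a11 (5.95), Sema6a (5.15), Gcm1 (4.92), Rxrg (4.86), Hoxb1 (4.76), Sycp1 (4.61) and Bcl11a (4.51). Differences of 3 to 4 were found for Proser3 (3.92), Taf7l (3.46), Stra8 (3.36), Igsf9 (3.25), Bmp4 (3.24), Wnt3 (3.19), Esrp1 (3.14) and Gadd45g (3.03). Positive values from 2 to 3 belonged to Gbx2 (2.83), Tdrd1 (2.82), Pmaip1 (2.78), Thy1 (2.74), Cdkn1c (2.67), Dazl (2.65), Mael (2.35), Sox3 (2.34), Hoxa5 (2.24), Pax6 (2.21), Lpar4 (2.11), Pou3f1 (2.07), Ccnd2 (2.05) and Cdh1 (2.05). Those from 1 to 2 belonged to Nr0b1 (1.94), Ddx4 (1.90), Apela (1.88), Dnmt3a (1.86), Pim2 (1.80), Zfp57 (1.65), Utf1 (1.62), Spry2 (1.53), Lef1 (1.42), Slc7a7 (1.33), Fzd2 (1.25), Sox11 (1.25), Ndufb3 (1.17), Meg3 (1.09), Tdgf1 (1.07) and Sulf1 (1.00). Positive values under 1 were those of Snrpn (0.83), Rpa2 (0.66), Tet1 (0.60), Fgf4 (0.48) and Otx2 (0.30). The most negative were Lama1 (-5.33), Sox17 (-5.05), Htra1 (-4.70), Col4a2 (-4.58), Serpinb6c (-4.43), Sparc (-4.35) and Col4a1 (-4.15). Negative values between 2 and 4 in size belonged to Gadd45b (-3.55), S100a13 (-3.35), Foxa2 (-3.24), Gata6 (-2.33), Lamc1 (-2.25), Cldn4 (-2.12) and Tgm2 (-2.0). Those between 1 and 2 in size belonged to Myof (-1.73), Adam11 (-1.68), Sfrp1 (-1.63), Xaf1 (-1.46), Klf4 (-1.45), Nid1 (-1.45), Bcl2l1 (-1.39), Hoxc4 (-1.34), Cited4 (-1.29), Socs3 (-1.09), Dnd1 (-1.09), Etv4 (-1.07), Fn1 (-1.05) and Slc13a5 (-1.03). Smaller negative values were those of Stat3 (-0.99), Scd1 (-0.93), Tfcp2l1 (-0.85), Tbx3 (-0.85), Sox1 (-0.85), Epha2 (-0.82), Dnmt3l (-0.80), Vim (-0.73), Nupr1 (-0.71), Calcoco2 (-0.68), Uhrf1 (-0.58), Tubb3 (-0.58), Klf5 (-0.50), Slc2a1 (-0.48), Etv5 (-0.47), Pfkp (-0.40), Ccnd3 (-0.39), Tcf7l1 (-0.34) and Nanog (-0.31). Values of genes at the floor in a group, such as Zfp352, Slc7a11, Sox17, Rxrg, Hoxb1 and Bcl11a, depend on the fit and are no bounds. The sign of the difference did not hold against each of the 4 induced responses for Nanog (-2.69 in C1T, but -3.02 in C1MDT and -2.82 in C1HDT), Otx2 (2.03 in C1T, but 2.12 in C1HDT), Calcoco2 (-5.84 in C1T, but -6.12 in C1MDT) and Ctnnb1. For Ctnnb1 the difference was 0.90, but counts of Ctnnb1 in the induced groups can include the fusion (means 12.3 CPM in C1M and 41.2 CPM in C1H against 7.82 CPM in C1), so this value does not describe the endogenous gene.

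In some genes 1 library stood apart from the other 3 of its group by Dixon's criterion, which chance meets in about 1 of 20 groups. In C1 replicate 2 these were Smad7 at 198 CPM (others 221 to 225) and Slc7a7 at 1.13 CPM (others 2.4 to 2.6). In C1 replicate 3 this was Gadd45g at 1.56 CPM (others 5.04 to 5.75). In C1T replicate 1 these were Fn1 at 173 CPM (others 162 to 163) and Hoxc4 at 3.36 CPM (others 1.91 to 2.08). In C1T replicate 2 these were Gbx2 at 32.5 CPM (others 23.5 to 24), Dnd1 at 2.915 CPM (others 8.11 to 9.14) and Plagl1 at 7.08 CPM (others 3.81 to 4.32). In C1T replicate 3 these were Tfcp2l1 at 51.5 CPM (others 68.5 to 69.1), Dnmt3b at 728 CPM (others 525 to 536), Fzd2 at 46.2 CPM (others 34.6 to 35.9) and Sox11 at 326 CPM (others 244 to 256). In C1T replicate 4 these were Vim at 182 CPM (others 161 to 163), Slc7a7 at 110 CPM (others 134 to 139), Slc13a5 at 3.92 CPM (others 1.67 to 1.92) and Rpa2 at 711 CPM (others 801 to 818).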

How the results depend on the processing

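All 6 counts over all genes (higher, lower, over 2, under -2, and positive and negative difference of responses) stayed within 1.5 times of those reported under RLE factors, library size only, DESeq2, no filter and the replicate block, and so did the 4 of C1T vs C1 in a fit of the 8 libraries. That fit gave 534 genes over 2 and 675 under -2. Requiring at least 1 CPM in all 8 libraries, which drops genes that are low in 1 group, left 199 genes over 2 and 288 under -2. With each library left out in turn, 3483 to 3682 genes were higher, 3491 to 3598 lower, 680 to 729 over 2, 797 to 846 under -2, 1887 to 2060 had a positive and 1890 to 2145 a negative difference. With the replicate block 3682 genes were higher and 3768 lower, and of 142 genes named with a fold it changed the call of 1, Epha2, which became lower. The log2 fold change of Foxa2, not called, was -0.18 without C1 replicate 3, -0.13 without C1 replicate 4 and -0.09 without C1T replicate 1 (range over left-out libraries -0.183 to 0.576), and that of Dazl, not called, was -0.03 without C1 replicate 4 and -0.17 without C1T replicate 2 (range -0.167 to 0.181), and that of Tcf7l1, not called, was 0.004 without C1T replicate 4 (range -0.085 to 0.004); the cause was not tested. Of 60 list counts, 22 moved by over 1.5 times in at least 1 alternative, 19 of them under the requirement of 1 CPM in all 8 libraries, where fewer members were tested: 9 FGF and ERK genes were then higher in place of 17, 7 Wnt genes in place of 15, 5 neural genes in place of 10 and 4 mesoderm genes in place of 9. Calls of 7 named genes (Axin2, Dnmt1, Col4a2, Gata6, Cdh2, Pou3f2 and Rpl3l) were lost in at least 1 alternative, and calls were gained by Nr0b1 and Etv5 in 1 each and by Epha2 in 8. The median of all genes lay between -0.008 and 0.034. Depth limits genes near 3 counts, where fitted folds depend on the fit.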
